A study of Caenorhabditis elegans with 2 samples.

Results

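The Hox genes of the nematode Caenorhabditis elegans are ceh-13, lin-39, mab-5, egl-5, nob-1 and php-3, and binding of the transcription factor PHA-4 at these genes is described here. The members were listed by name and are 6 of 19973 protein-coding genes on the 6 chromosomes. PHA-4 was profiled by ChIP-seq, the sequencing of DNA that is precipitated with a protein, in whole animals of the L4 stage, which precedes the adult. The data comprise 1 group of 2 biological replicates, each of pooled males and females, with library fragments of 150 to 350 bp. Both came from the strain OP37, with the genotype unc-119(ed3) III; wgIs37, an insertion linked to pha-4. The labels name pha-4 as the antibody target and elsewhere describe the target as eGFP-pha-4. The labels state neither the promoter of the insertion nor an age in hours, nothing says whether the replicates were separate cultures, and no control sample was analysed here. With whole animals as the material, a site bound weakly in many cells and a site bound strongly in few cells cannot be told apart.

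Hox genes encode homeodomain transcription factors that give cells along the anterior-posterior body axis their regional identity. In the worm, ceh-13 is the labial-type gene of the anterior, lin-39 acts in the mid-body and the vulval precursor cells, and mab-5 acts in the posterior body, for instance in migrating neuroblasts. The genes egl-5, nob-1 and php-3 are posterior genes of the Abdominal-B type. PHA-4 is a forkhead factor of the FoxA family, best known for specifying the pharynx and also acting in the intestine and somatic gonad. The question addressed is where PHA-4 regions lie at the Hox genes, how strong they are and whether both replicates hold them.

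All 6 genes lie on chromosome III, in pairs. The genes lin-39 (WBGene00003024, III:7528641-7536632, minus strand) and ceh-13 (WBGene00000437, III:7555660-7558041, plus strand) point away from each other. The genes mab-5 (WBGene00003102, III:7776835-7783454, minus strand) and egl-5 (WBGene00001174, III:7814374-7817141, plus strand) do the same, and the gene cyk-7 lies between them. The genes php-3 (WBGene00004024, III:12074218-12077556) and nob-1 (WBGene00003779, III:12077793-12084316) are neighbours on the minus strand, with php-3 downstream of nob-1. Each gene was given a window of its body and the 5000 bp upstream of every annotated transcript 5' end, on the WBcel235 assembly, which the deposited coordinates call ce11. These windows were 7382 to 12992 bp long, with a median of 9.93 kb, against a median of 7.03 kb over all protein-coding genes. The windows of nob-1 and php-3 overlap, so a region can count for both.

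The summit sequences printed here carry the findings below. They are the strongest summit of any Hox gene, the summit that both replicates held, and the summit nearest to an annotated 5' end of nob-1. Each runs 50 bp to either side of the summit in the pooled list, on the plus strand of WBcel235 as given by RefSeq. Capitals mark the forkhead consensus, which has 7 bases, T, A or G, T, T, G or T, A or G, C or T, on either strand, and a sequence without capitals holds none.
ceh-13 upstream, III:7554457-7554557: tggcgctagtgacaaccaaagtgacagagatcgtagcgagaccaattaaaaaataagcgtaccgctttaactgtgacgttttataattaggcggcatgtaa
nob-1 coding exon and php-3 upstream, III:12078075-12078175: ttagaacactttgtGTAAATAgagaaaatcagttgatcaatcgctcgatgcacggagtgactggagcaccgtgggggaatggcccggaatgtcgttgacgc
nob-1 inner 5' end, III:12079297-12079397: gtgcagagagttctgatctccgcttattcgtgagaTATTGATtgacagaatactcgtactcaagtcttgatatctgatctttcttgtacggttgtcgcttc

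The PHA-4 regions at the Hox genes were weak, and mab-5 had none. Of the 6 genes, 5 had at least 1 summit of the pooled list in their window, and 75.3% of all protein-coding genes did. None had a summit of the authors' IDR list, which was thresholded by the irreproducible discovery rate and holds the strongest 1484 pooled regions, while 12.7% of all protein-coding genes had one. On 6 genes, of which nob-1 and php-3 have overlapping windows, this count of 0 is not read as a shortfall against the background. The pooled list holds 30000 regions called on both replicates together, and its deposited name says that it includes background. Signal is the authors' value for each region, whose scale is not stated. In replicate 1's list 4 of the 6 genes had a summit (67.9% of all genes did), and in replicate 2's list 5 did (69.3% of all genes).

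Together the windows held 11 distinct pooled summits, with signals of 2.48 to 6.76 and a median of 3.56, against a median of 5.07 over the whole pooled list. The strongest stood at rank 10961 and the weakest at rank 29475 of 30000. The strongest Hox signal of 6.76 compares with 25.9 for the weakest region of the IDR list, which is 3.84 times as high. In the strongest 10000 pooled regions no Hox gene had a summit, and 46.5% of protein-coding genes had one. This difference was not tested, and it rests on 6 genes. Of the 11 summits, 2 had a deposited −log10 q value of at least 2 (18.2%), against 44.0% of all pooled regions and 12.1% of those between 2.48 and 6.76 in signal. The union of the windows spans 54.9 kb and held 0.201 summits per kb, against 0.299 per kb over the chromosomes.

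**Figure D1:**
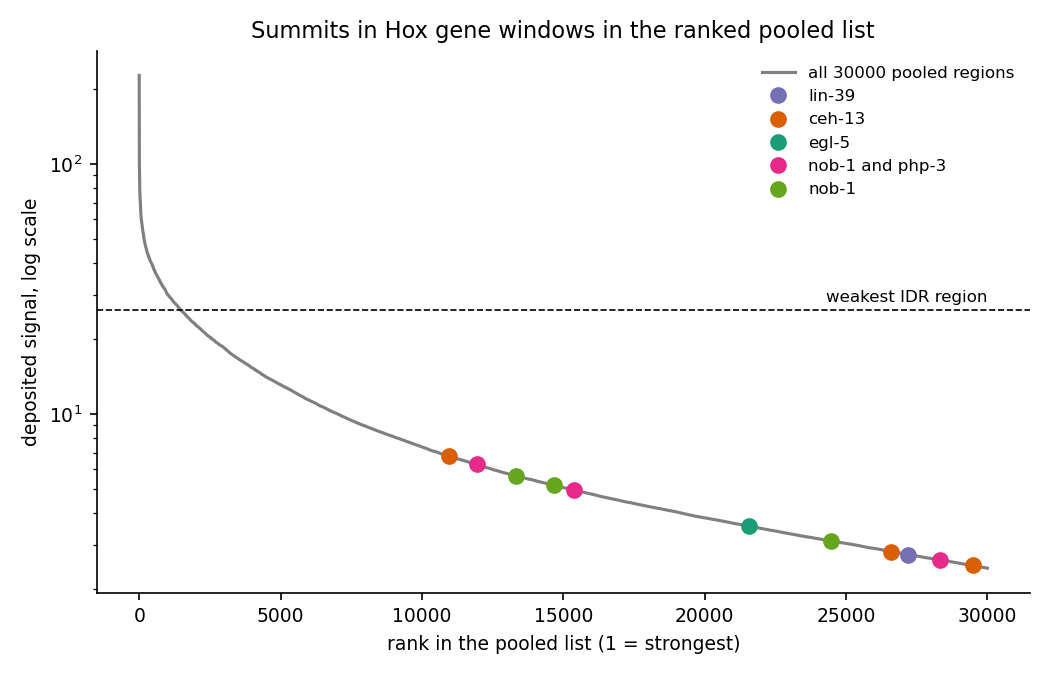
Deposited signal (log axis) of all 30000 pooled regions against their rank, with the 11 summits in Hox gene windows as points coloured by gene and the weakest IDR region as a dashed line. All 11 points lie between rank 10961 and rank 29475, below the dashed line at 25.9.

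The anterior gene ceh-13 had the strongest summit of the members. It lay at III:7554352-7554661, 1153 bp upstream of the annotated 5' end in intergenic sequence, with a pooled signal of 6.76 and a −log10 q of 2.62. Replicate 2 held a region with the same summit and a signal of 4.30, at rank 8907 of 20807, and replicate 1 held none within 150 bp. A weaker pooled summit stood 3251 bp upstream, with a signal of 2.81. There replicate 2 had a region of 3.13 whose summit was 43 bp away, and replicate 1 had one of 4.82 whose summit was 200 bp away, outside the distance used for a match. That region was the strongest of replicate 1 at any Hox gene and stood at rank 8727 of 21039. The remaining pooled summit, of 2.48, lay in an intron 993 bp downstream of the 5' end and was matched in neither replicate. At the farther site the summits of the replicates were 243 bp apart, and the strongest pooled summit was matched in replicate 2 alone.

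The mid-body gene lin-39 had a single pooled summit, with a signal of 2.74 at rank 27202. It lay at III:7534790-7535099 in an intron of the longer transcript, 140 bp upstream of the 5' end of the shorter one, and neither replicate held a region within 150 bp. Replicate 2 had a region of 3.15 in the 3' UTR, 5977 bp downstream of the nearest 5' end, and replicate 1 had no region in the window. The lists therefore named different places at this gene.

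The 11620 bp window of mab-5 held no summit in the pooled list or in either replicate's list, which was so for no other Hox gene. Of all protein-coding genes, 15.5% likewise had no summit in these lists. Among the 2071 genes with a window at least as long, 70 did (3.38%). The nearest pooled summit lay 7104 bp from the 5' end, past the 3' end of the gene, with a signal of 5.78. It stood 317 bp from the 5' end of the neighbouring gene bath-15. Replicate 2 held it with a signal of 4.98, and the nearest summit of replicate 1 was 12293 bp from the 5' end of mab-5.

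The posterior gene egl-5 had 1 pooled summit, of signal 3.56 at rank 21566, in intergenic sequence 3416 bp upstream of a 5' end. Replicate 1 held a region there with a signal of 3.64, its summit 102 bp away. Replicate 2 held none there and had instead a region of 2.54 in an intron, 352 bp downstream of a 5' end. The summits of the 2 replicates were thus 3876 bp apart at this gene.

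The posterior paralogues nob-1 and php-3 held most of the summits. The window of nob-1 had 6 pooled summits with signals of 2.60 to 6.28, and 3 of them also lay in the window of php-3. The strongest, at III:12077970-12078279, had a signal of 6.28 at rank 11933 and lay in a coding exon of nob-1, 569 bp upstream of the 5' end of php-3. It was the one Hox summit matched in both replicates, with signals of 2.78 in replicate 1 and 2.98 in replicate 2 and summits 0 and 44 bp from the pooled one. In its sequence, printed above, the forkhead word is centred 33 bp to the left of the summit. Its log2 ratio of replicate 1 to replicate 2 was −0.10, where 7769 pooled regions matched in both replicates had a median of 0.13 with an SD of 0.94 across regions.

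The other summits of nob-1 were held by neither replicate. A summit of signal 4.96 lay in a coding exon 88 bp downstream of the inner 5' end of nob-1, where a shorter transcript begins, and 1791 bp upstream of php-3. Around the outer 5' ends stood summits of 5.19, 1141 bp upstream, of 3.10, 191 bp downstream, and of 5.64, 904 bp downstream, and the last 2 were intronic. The remaining summit, of 2.60, lay in an intron 1736 bp downstream of the nearest 5' end and 4970 bp upstream of php-3. So 6 of the 11 Hox summits fell in the nob-1 window, and 5 of these were in the pooled list without a match in either replicate.

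**Figure D2:**
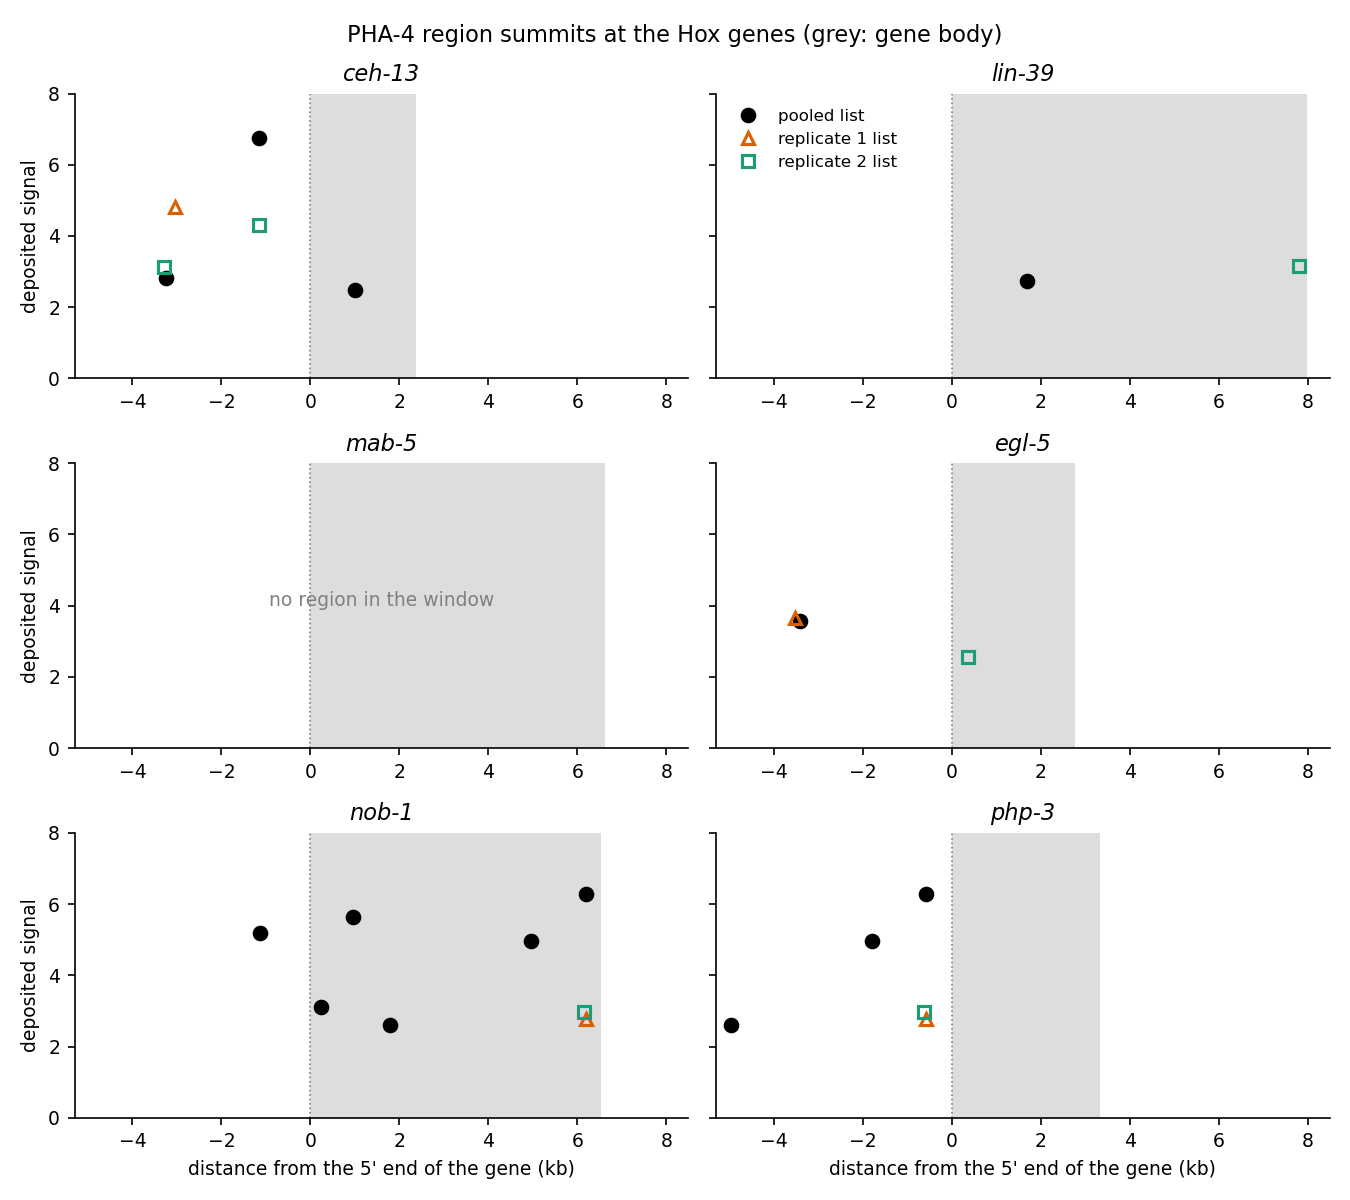
Deposited signal of each region against the distance of its summit from the outermost annotated 5' end of the gene (kb, upstream negative), for each Hox gene, in the pooled list (black circles), replicate 1 (orange triangles) and replicate 2 (green squares). Grey marks the gene body, and for lin-39, egl-5 and nob-1 the text counts from the nearest of several 5' ends instead. The mab-5 panel is empty, and at nob-1 and php-3 the pooled list and replicate 1 have a summit 569 bp upstream of php-3, with that of replicate 2 lying 44 bp farther upstream.

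A smaller share of Hox summits than of all pooled summits was matched in a replicate, on a base of 11. A replicate region was matched where its summit lay within 150 bp of the pooled one. Of the 11 Hox summits, 1 was matched in both replicates (9.09%), 3 in 1 replicate (27.3%) and 7 in neither (63.6%), whereas these shares were 25.9%, 48.5% and 25.6% of all pooled summits. Among 18515 pooled summits in the same signal range of 2.48 to 6.76, they were 4.29%, 57.3% and 38.4%. Both replicates' lists begin at a signal of 2.00, so a weaker replicate signal at these places would not be listed. A summit matched in both replicates lay in the windows of 2 of the 6 genes, nob-1 and php-3, through the one shared summit, and in those of 41.0% of all protein-coding genes.

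Counted by gene, the median number of pooled summits per kb was near that of all protein-coding genes. This count enters the summits shared by nob-1 and php-3 for both genes. The strongest signals were below the median of the genes that have a summit. The genes had 0.521 (nob-1), 0.406 (ceh-13), 0.360 (php-3), 0.129 (egl-5), 0.0770 (lin-39) and 0 (mab-5) pooled summits per kb of window. Their median of 0.244 was close to the 0.245 of all protein-coding genes, with nob-1 reached or passed by 20.5% of genes and lin-39 by 74.7%. In single replicates the medians stood further apart, at 0.103 for the Hox genes and 0.157 for all protein-coding genes in replicate 1, and at 0.103 for the Hox genes and 0.158 for all genes in replicate 2. All 3 pooled summits of php-3 were also counted for nob-1, and the pooled median of the Hox genes rests on both. The union of the windows, in which no summit is counted again, held 0.201 per kb, against 0.299 over the chromosomes. By strongest pooled signal the order was ceh-13 at 6.76, nob-1 and php-3 at 6.28 through their shared summit, egl-5 at 3.56 and lin-39 at 2.74. The median over these 5 genes was 6.28, against 10.6 over the 15030 protein-coding genes with a summit (quartiles 4.95 and 21.0). This Hox median is the value of the shared summit itself, which was entered for both nob-1 and php-3. Of all protein-coding genes, 48.5% had a strongest signal at least as high as that of ceh-13 and 72.3% at least as high as that of lin-39. The order was not shared by the replicates. In replicate 1 ceh-13 led with 4.82, followed by egl-5 with 3.64 and nob-1 and php-3 with 2.78. In replicate 2 ceh-13 led with 4.30, followed by lin-39 with 3.15, nob-1 and php-3 with 2.98 and egl-5 with 2.54. The position of ceh-13 at the head was common to the lists, although the summit behind it was not, and the neighbours below it changed places.

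**Figure D3:**
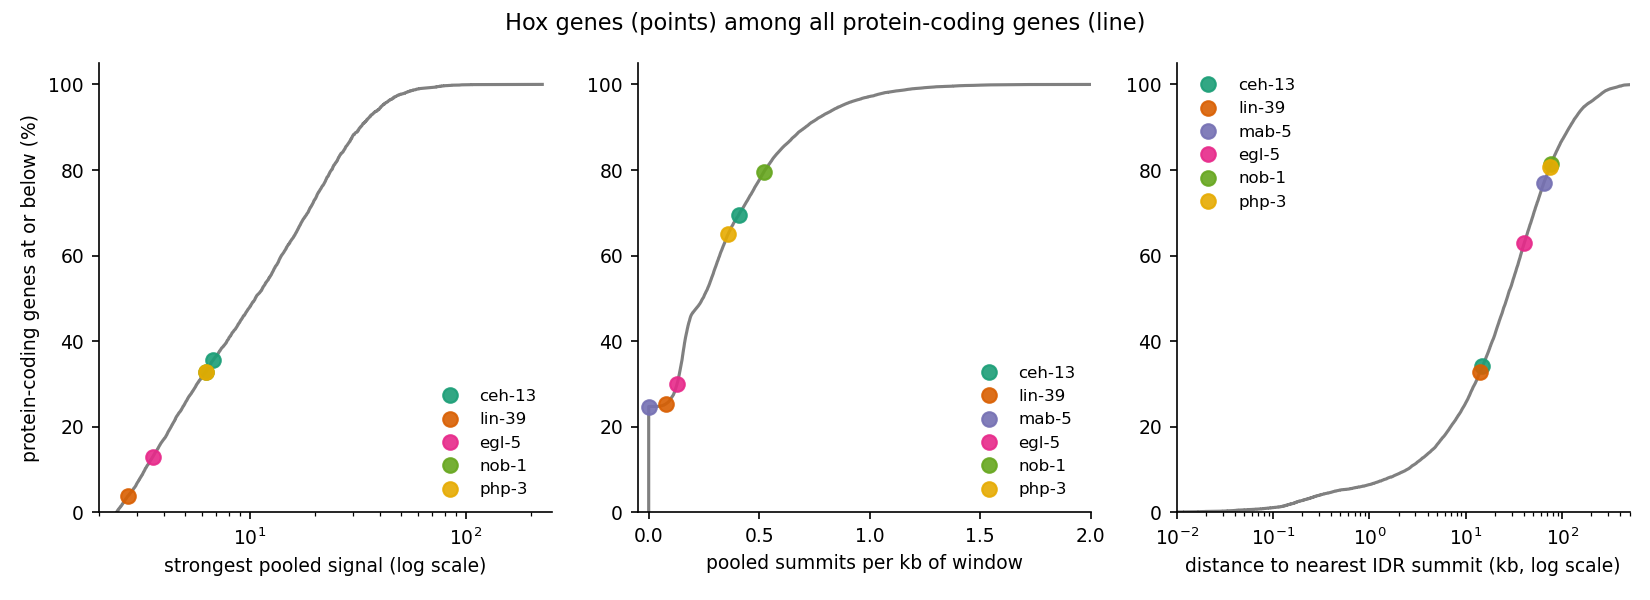
Share of protein-coding genes (%) at or below a value, for the strongest pooled signal in the window (left, genes with a summit, log axis), pooled summits per kb of window (centre) and the distance from the nearest annotated 5' end to the nearest IDR summit (right, kb, log axis). Coloured points are the Hox genes, with nob-1 hidden under php-3 on the left and mab-5, which has no summit, missing there; all left-hand points lie at 6.76 or less, under the median of 10.6 over genes with a summit.

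Strong regions lay outside the Hox windows. From the nearest 5' end, the closest IDR summit was 13941 bp from lin-39, 14845 bp from ceh-13, 40303 bp from egl-5, 63930 bp from mab-5, 74084 bp from php-3 and 75963 bp from nob-1. The median of 52.1 kb compares with 26.7 kb over all protein-coding genes, and the nearest IDR summit was closer for 81.3% of genes than for nob-1 but for 32.7% than for lin-39. These nearest regions belonged by position to other genes, which were singled out after their values were seen. The one near lin-39 (signal 29.9) lay 19 bp from the 5' end of cux-7 and that near ceh-13 (31.8) 372 bp from R13A5.7. The one near mab-5 (32.2) lay 205 bp from ncl-1, and that near egl-5 (62.4, rank 65) lay 451 bp from the ribosomal protein gene rpl-35. The one nearest to both nob-1 and php-3 (28.4) lay 522 bp from Y56A3A.33.

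Because Hox genes have long flanks, the stretches between their outer protein-coding neighbours were also examined. The stretch of lin-39 and ceh-13 (37.3 kb, between lig-4 and lgc-12) held 5 pooled summits, that of mab-5 and egl-5 (48.3 kb, between bath-15 and egl-45) held 6, and that of php-3 and nob-1 (29.7 kb, between zyg-8 and cest-12) held 7. These are 0.134, 0.124 and 0.236 summits per kb, each below the 0.299 per kb of the chromosomes. No stretches were built in the same way around other genes, so this is not read as a shortfall. None was an IDR region. The stretches added 7 summits to the 11 of the windows, and 1 of the 7 was matched in both replicates. It lay between mab-5 and egl-5 at III:7799509-7799818, with a pooled signal of 6.06 and 3.76 and 4.28 in replicates 1 and 2. Its summit was 16210 bp upstream of mab-5, 14710 bp upstream of egl-5 and 4255 bp from the 5' end of cyk-7, so its position gives it to none of the Hox genes.

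The sequence under the Hox summits was set beside that under other summits. Of the 11 summits, 4 had a whole forkhead word in the 101 bp around the summit (36.4%), and 3 of the 4 lay at nob-1, including the places printed above. The share was 33.4% of all pooled summits, 28.3% of those in the same signal range and 48.2% of IDR summits. The 3 ceh-13 summits and that of lin-39 had none, which says no more than that these letters are absent from those 101 bp. The consensus is short and common. The Hox windows held 179 matches, or 3.26 per kb against 3.31 per kb over the chromosomes, and 6 of them (3.35%) had their centre within 50 bp of a pooled summit, which also counts a word that runs past the 101 bp, against 4.10% of matches over the chromosomes. The mab-5 window, which has no summit, held 47 of these matches. By position, 5 of the 11 summits were intronic, 4 intergenic and 2 in coding exons, where the shares of all pooled summits were 29.9%, 43.3% and 19.8%. In the same signal range these were 31.7%, 34.5% and 26.9%. The 101 bp windows were 30.7 to 55.4% G or C with a median of 41.6%, against 39.6% for all pooled summits.

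Genes that work with the Hox genes were read by the same window rule, from lists of 39 genes. The median window of each list was longer than that of all protein-coding genes, at 8880 to 12743.5 bp against 7.03 kb. Longer windows can hold more summits, and for these lists no share was taken over genes with windows of like length. Of the 39 genes, 35 had a pooled summit (89.7%, against 75.3% of all protein-coding genes) and 7 an IDR summit (17.9%, against 12.7%). All 7 came from the lists of chromatin regulators of the Polycomb or Trithorax type, which in animals keep Hox genes silent or active. In the Polycomb-like list 3 of 8 genes had an IDR summit. They were sor-1, a gene required to keep Hox genes silent, with a pooled signal of 42.3 (20.2 in replicate 1 and 26.7 in replicate 2), mes-2, an E(z)-type histone methyltransferase, with 30.05 (12.4 and 17.2), and mes-3 with 27.7 (19.4 and 3.74). The mes-3 summit lay 355 bp from the 5' end of dyf-1 and so need not belong to mes-3.

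In the Trithorax-like list 4 of 6 had an IDR summit, against 12.7% of all protein-coding genes, whose windows were shorter in the median. These were ash-2, with 43.7 (20.5 and 23.3) at 91 bp upstream of a 5' end, lin-49 with 38.1 (17.7 and 17.5), wdr-5.1, a subunit of histone H3 methyltransferase complexes, with 28.8 (8.80 and 17.8), and lin-59 with 26.0 (21.7 and 10.3). The wdr-5.1 summit lay 31 bp from the 5' end of C14B1.3. The lin-59 region stood at rank 1478, just inside the 1484 of the IDR list. In both chromatin lists every gene had a pooled summit (75.3% of all protein-coding genes did, with shorter windows in the median). The strongest signal of each gene, 8.69 (mig-32) to 43.7, was above the 6.76 of ceh-13.

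The genes of the remaining lists had no IDR summit, as was the case for the Hox genes. Their counts with a pooled summit stand against the same 75.3% of all genes, whose windows are shorter in the median. Of 5 genes for cofactors that bind DNA with Hox proteins, 4 had a pooled summit, the strongest at the PBC-type gene ceh-60 with 19.3 (8.28 in replicate 1 and 10.98 in replicate 2), in a coding exon 3120 bp from the 5' end of ets-4, then ceh-20 with 12.2 (2.42 and 4.02) and psa-3 with 5.19, at a summit closer to the 5' end of pqn-36, while ceh-40 had none. The psa-3 summit was matched in replicate 2 alone, with 2.22. Of 11 genes of the Wnt pathway, which sets Hox expression in several worm cell lineages, 9 had a pooled summit. The strongest were at mig-14, needed for Wnt secretion, with 13.5, the Wnt gene mom-2 with 11.3 and the TCF gene pop-1 with 10.1. The mig-14 summit had 8.28 in replicate 1 and no match in replicate 2. Those of mom-2 (7.90 and 2.64) and pop-1 (6.44 and 6.09) were matched in both. The β-catenin gene bar-1 and the Frizzled gene mig-1 had no pooled summit. Of 7 genes regulated by Hox factors, 6 had a pooled summit, and the cell death gene egl-1 had none. The growth factor gene egl-17 led with 23.8 (11.9 and 8.02), followed by the twist-type gene hlh-8 with 9.29, whose summit was closer to the 5' end of K07E3.1, and the cell fusion gene eff-1 with 6.62, which was matched in neither replicate. The Caudal homologue pal-1 had 9.53 and the Even-skipped homologue vab-7 had 6.53, each with a region in replicate 2 (5.23 and 3.66) and no match in replicate 1.

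**Figure D4:**
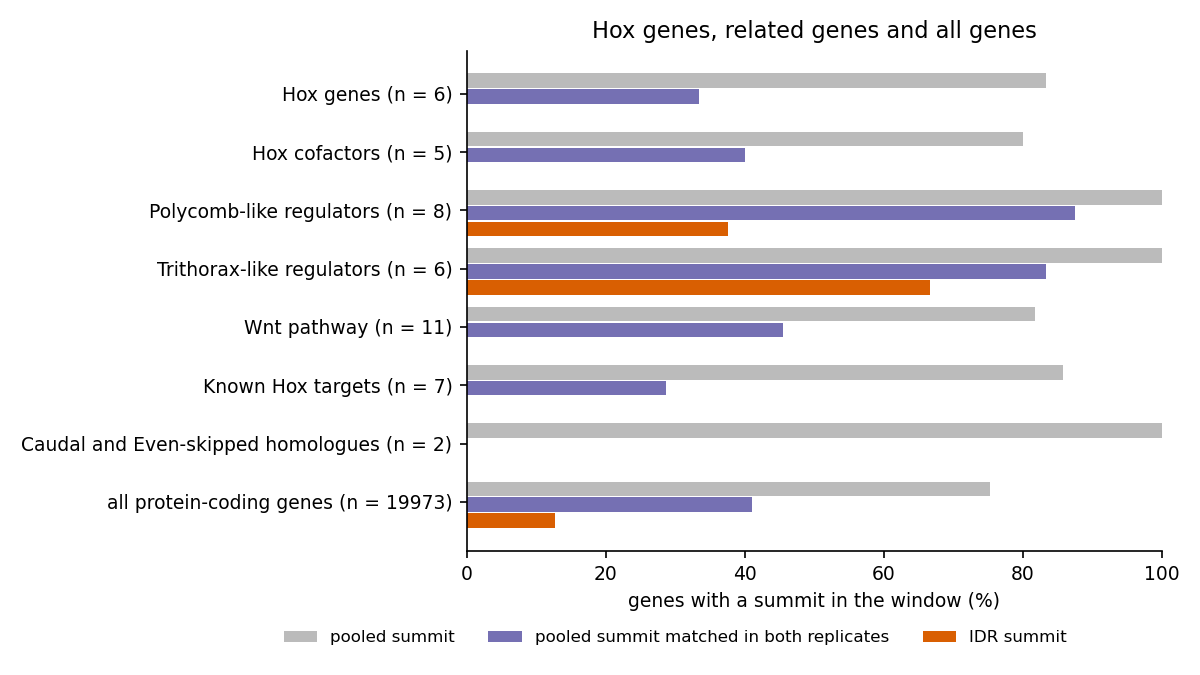
Share of genes (%) with a summit in the window, for the Hox genes, the 6 related lists and all 19973 protein-coding genes, where grey bars are any pooled summit, violet bars a pooled summit matched in both replicates and orange bars an IDR summit. IDR summits stood in 3 of 8 Polycomb-like and 4 of 6 Trithorax-like genes and at none of the 6 Hox genes. Of all protein-coding genes, 12.7% had one.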

How the data were processed

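The authors deposited region lists in narrowPeak layout, and the manifests deposited with them say that each replicate's list was called on its own alignments, the pooled list on both, each against a control, and the IDR list from these 3. Neither the peak caller nor its settings or the IDR threshold are stated in the labels or manifests. The deposited signal of a region has no stated scale. The deposited −log10 q value is capped and the same for every IDR region, so regions were ranked by signal. The IDR list held the strongest 1484 pooled regions. The ce10 lists were not used here. No read counts were used here. Library depth is therefore unknown, and no interval rests on it.

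Genes came from Ensembl release 115 and sequence from RefSeq, both for WBcel235. Of the annotated start codons, 99.9% read ATG in that sequence, and all regions lay inside its chromosomes. Coordinates are counted from 1. The sequence at the egl-5 summit is not reported here. A summit is the region's start plus the deposited offset. Alternatives were upstream windows of 2000 and 1000 bp, upstream sequence alone, overlap of at least 1 bp in place of the summit, stricter lists, match distances of 75 and 300 bp, motif distances of 25 and 100 bp, and each replicate alone. Scripts used Python 3.11.15, NumPy 2.4.6 and pandas 2.3.3, and their rules were checked on constructed regions with known answers.

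The members and gene lists were chosen with earlier results of these data known. With 1 group of 2 replicates there is no contrast, so no test was made and values are descriptions. All members were named. Of the other lists, genes with an IDR summit and up to 3 with the strongest pooled signal were named, and mig-32 and the genes with no summit, ceh-40, bar-1, mig-1 and egl-1, were added after their values were seen.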

Additional observations from a re-analysis of the deposited data

How the results depend on the processing

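The absence of an IDR summit at the Hox genes held under all 7 alternatives tried. The shorter or upstream-only windows and the strongest 1000 regions are parts of the main setting, so they could not have added a summit. The overlap rule could not either, since the closest IDR summit lay 13941 bp from a Hox 5' end, farther than any Hox window is long. Only each replicate's own strongest 1484 regions could have added one. The number of Hox genes with a summit was 5 and ran from 4 to 5 in single replicates. With 2000 or 1000 bp upstream the number was 4, where 63.3% and 56.9% of all protein-coding genes had a summit. The number was 0 in the strongest 10000 or 6000 pooled regions, against 46.5% and 36.2% of all protein-coding genes, and this was not tested. At a −log10 q of at least 2, a setting chosen after seeing the data, it was 3, against 52.7% of all genes. The 11 pooled summits became 7 with 1000 bp upstream, 0 in the strongest 10000 or 6000 regions, 2 at that −log10 q and 18 over the whole stretches, the last also chosen after seeing the data. Single replicates gave 3 to 5. With 1000 and 2000 bp upstream egl-5 lost its summit, and with 1000 bp the strongest ceh-13 value became 2.48. The strongest Hox signal was then 6.28. In replicates 1 and 2 alone it was 4.82 and 4.30, where the list medians were 4.11 and 3.80, against 5.07 in the pooled list. Signals of different lists need not share a scale, so this is not read as a fall. The median of 0.244 summits per kb became 0.237 and 0.171 with 2000 and 1000 bp, and 0.103 in either replicate alone, against 0.157 and 0.158 over all genes in replicates 1 and 2. Matching within 300 bp gave 2 summits held by both replicates, the added one 3251 bp upstream of ceh-13, and a median log2 ratio of 0.26 over the 2. The forkhead count of 4 became 7 within 100 bp and 2 within 25 bp. In replicates 1 and 2 alone it was 2 of 3 and 2 of 5 summits. No share over all summits was taken at these settings, so these forkhead counts are not read against a background. The cause of these moves was not tested beyond what each setting itself removes or adds. The related lists, with 35 of 39 genes, stayed at 33 to 34. Of all protein-coding genes, 63.3% and 56.9% had a summit with 2000 and 1000 bp upstream, and 67.9% and 69.3% in replicates 1 and 2. No paired analysis was possible because the study has 1 group. Depth is unknown, and a region missing from a list was only not listed there, which does not show that it is unbound.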
